A study of Saccharomyces cerevisiae with 6 samples.

Results

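The genes examined here encode the cytosolic translation initiation factors, with the poly(A)-binding protein gene PAB1, and the cytosolic aminoacyl-tRNA synthetases, with the synthetase cofactor gene ARC1, of budding yeast. They were taken by systematic name: 41 genes were named and 33 of them ended a transcript identifier in the deposited tables, which list 2850 genes. The 33 comprised 17 of 19 initiation factor genes and 16 of 22 synthetase genes, and all 33 passed the filter on low counts. TIF4631 and PRT1 among the initiation factors, and ALA1, GRS1, HTS1, MES1, VAS1 and CRS1 among the synthetases, were not analysed here. The names were chosen for their function, but with earlier results of the same libraries known.

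Messenger RNA was sequenced from 3 [ESI+] and 3 naive biological replicates of BY4743, a diploid Saccharomyces cerevisiae laboratory strain, grown in rich glucose medium (YPD) to mid-logarithmic phase. [ESI+] is a heritable, prion-like state, and the naive cells are the same strain without it. Both groups share the strain, the medium and the growth phase. Poly(A) RNA of whole cultures was measured, so fewer cells and less RNA per cell cannot be told apart.

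Initiation factors bring the initiator tRNA, the small ribosomal subunit and the messenger RNA together and choose the start codon. eIF4E binds the cap, eIF4G holds eIF4E, the helicase eIF4A and Pab1 on one message, eIF2 delivers the initiator tRNA, and eIF3 is the large scaffold on the small subunit. Aminoacyl-tRNA synthetases join each amino acid to its tRNA, and their products are what the elongating ribosome consumes. In growing yeast both classes are abundantly expressed housekeeping genes, and many of them carry promoter elements that they share with genes of ribosome assembly.

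The sequences below show short motifs found upstream of the start codons of some of the 33 genes. The 250 bases before each start codon were read from the R64 genome and searched on both strands for 3 short motifs: AAAATTTT, the core of the element called RRPE, which is its own reverse complement; GATGAG, the core of the PAC element; and TGACTC, the core of the site bound by the amino acid control activator Gcn4. AAAATTTT was found upstream of 12 of 17 initiation factor genes (70.6%) and 10 of 16 synthetase genes (62.5%). It occurred in 8.66% of all 6007 nuclear promoters of that length and in 13.0% of the 710 such promoters that belong to the 711 most abundant tested genes. TGACTC was found upstream of 6 of 16 synthetase genes (37.5%) and 0 of 17 initiation factor genes, against 6.24% of all promoters and 8.31% of those 710. GATGAG was found upstream of 5 of 17 and 3 of 16 genes, 29.4% and 18.8%, against 17.01% of all promoters and 13.2% of those 710. A match is a description of the letters and says nothing about whether a factor binds.

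Windows of 30 bases around AAAATTTT are shown for the synthetase gene that passed the test described below and for the initiation factor genes with the lowest fold changes that hold the motif. They run 5′ to 3′ on the strand of the gene, with the motif in capitals.
FRS1 (chrXII:260871-260900, + strand): tgaaggaaatgaAAAATTTTcaatgtattt
TIF1 (chrXI:554792-554821, + strand): tatagtgactgaAAAATTTTtgcattctca
TIF3 (chrXVI:870120-870149, - strand): caccacggaatgAAAATTTTtttgcggaaa
TIF5 (chrXVI:648483-648512, + strand): tgtaaatagtgaAAAATTTTcatcgcgaag
FUN12 (chrI:76300-76329, + strand): ttgtgatgtgaaAAAATTTTtcaagcttta
Windows around TGACTC, or its reverse complement GAGTCA, are shown for the 5 synthetase genes in which the match lay more than 100 bases before the start codon. The match of ARC1 began 6 bases before its start codon.
ILS1 (chrII:84346-84375, - strand): tcgaaacaatgaTGACTCttaagcatgaaa
KRS1 (chrIV:525294-525323, + strand): tgaatgatgaaaTGACTCttaatgaacttc
THS1 (chrIX:212283-212312, + strand): ttactgtttaaaTGACTCttaccttgtgat
YDR341C (chrIV:1153809-1153838, - strand): aaagtgtctaatGAGTCAgttatttctttc
YHR020W (chrVIII:143802-143831, + strand): taagcgatgcttGAGTCActgaatgtcttg
AAAATTTT was absent from this window of YHR020W, which is divergent from the asparaginyl synthetase gene DED81 across 437 bases. The DED81 match lay in that shared region, 184 bases before the DED81 start codon.

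The 6 libraries held 316485 to 5934050 estimated counts. ESI+ replicate 3 was the shallowest, and 1 count there equals 2.504 CPM (counts scaled to the normalised library size), against 0.132 to 1.36 in the other libraries. ESI+ replicates 2 and 3 stood apart from the naive libraries: Pearson's r of log2 CPM across genes, which are not independent replicates, was 0.614 to 0.652 and 0.667 to 0.672 with them, against 0.898 to 0.908 for ESI+ replicate 1 and 0.926 to 0.952 among naive libraries. Abundant genes were low and scarce genes high in ESI+ replicate 2, where the median log2 difference from the naive mean was -1.46 over the 711 most abundant genes and 1.31 over the 711 least abundant ones. Fold changes are therefore given with and without ESI+ replicate 2. URA3, absent from this strain by design, had 17.8, 26.3 and 333 CPM in ESI+ replicates 1 to 3 and 32.3, 20.4 and 254.8 CPM in naive replicates 1 to 3, so all 6 libraries held counts of a gene that the strain label says is absent, and replicate 3 of each group had the most for its depth. HIS3, which this strain carries in a partly deleted form, had 35.0, 66.45 and 453 CPM in ESI+ libraries and 32.9, 32.6 and 50.6 CPM in naive libraries. Of the haploid-specific genes that an a/alpha diploid represses, 3 of 13 were listed. MFA1 had 3.77, 11.4 and 15.02 CPM in ESI+ libraries and 1.42, 0 and 0.872 CPM in naive libraries, all from at most 7 counts except for 86 in ESI+ replicate 2. STE4 had 37.7, 97.8 and 42.6 CPM in ESI+ libraries and 40.5, 38.02 and 18.96 CPM in naive libraries. MFA2 did not pass the filter on low counts and had 66 counts in ESI+ replicate 2 and at most 5 elsewhere. Their part in the results below was not tested.

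The fitted level was lower in ESI+ than in naive cells for 30 of the 33 genes, but only 1 gene passed the test across all genes. That gene was FRS1, the beta subunit of phenylalanyl-tRNA synthetase, with a log2 fold change of -1.82. Each class had 15 negative fold changes, of 17 initiation factors and of 16 synthetases. The median log2 fold change was -0.85 over the initiation factors and -1.28 over the synthetases, against 0.07 over all 2844 tested genes and -0.67 over the 711 most abundant of them, which held 15 of the 17 and 13 of the 16. The direction is thus shared by abundant genes at large: 47.6% of all tested genes and 76.7% of the 711 most abundant had a negative fold change.

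The test was edgeR's quasi-likelihood test, with p-values adjusted by Benjamini-Hochberg across every tested gene and a threshold of 0.05. It called 1.65% of tested genes lower and 6.26% higher. Of the members, 1 of 33 was called lower and 0 higher, a share near the background for lower calls and near the 3.66% of the 711 most abundant genes that were called lower. With a raw p under 0.05, 5 initiation factors and 9 synthetases were lower and 0 members were higher, where 10.6% of all tested genes and 22.8% of the 711 most abundant were lower, and 15.1% of all tested genes were higher. All 3 ESI+ values lay below all 3 naive values for 6 initiation factors and 11 synthetases, as they did for 14.6% of tested genes and 31.5% of the 711 most abundant. For 0 members did all ESI+ values lie above the naive values, as they did for 15.2% of tested genes. Without ESI+ replicate 2, the class medians were -0.52 and -1.03, 15 and 14 members were negative, and 0 members were called, where edgeR called 0.0704% of tested genes. The 711 most abundant genes then had a median of -0.43, and 472 of them were negative. At a raw p under 0.05, 5 initiation factors and 6 synthetases were then lower, against 8.87% of all tested genes and 132 of the 711 most abundant. Without replicate 3 of both groups the class medians were -0.72 and -0.96 and 0 members were called, where edgeR called 6 of 2848 tested genes lower and 177 higher. DESeq2, run on the same counts, called 6 members lower (TIF1, TIF3, FUN12, FRS1, DPS1 and GUS1), where it called 5.12% of genes lower.

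**Figure D1:**
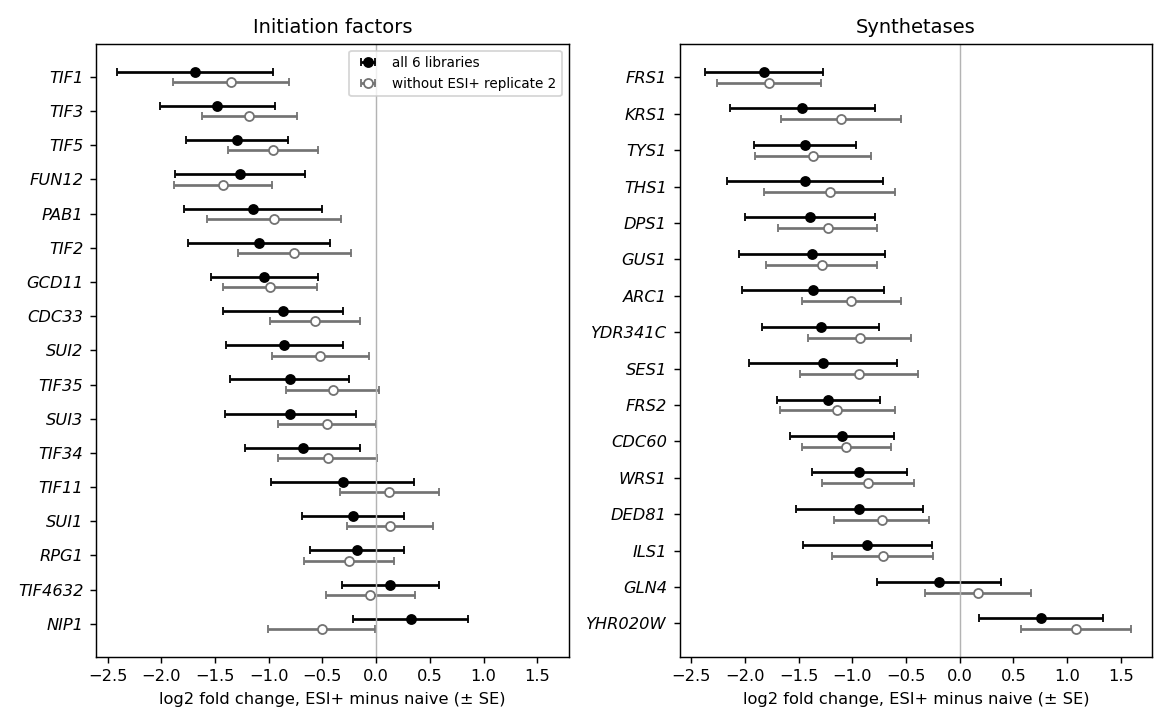
Log2 fold change (ESI+ minus naive, horizontal axis, ± SE) of each initiation factor gene (left) and synthetase gene (right), from all 6 libraries (filled) and without ESI+ replicate 2 (open). Of the 33 genes 30 lie below 0 with all libraries; when ESI+ replicate 2 is left out, 5 genes change side (NIP1, TIF4632, TIF11, SUI1 and GLN4) and YHR020W stays above 0.

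Among the initiation factors, those that bind the cap and unwind the message included both the lowest fold change of the class and a fold change near 0. TIF1 and TIF2 both encode eIF4A, the helicase of the cap-binding complex. TIF1 (chromosome XI, 554987 to 556174) had 1178, 364 and 686 CPM in ESI+ libraries and 2196, 2077 and 2880 CPM in naive libraries. Every ESI+ value lay below every naive value. Its mean was 743 ± 410 CPM in ESI+ and 2384 ± 433 CPM in naive libraries (SD, n = 3 each), with a log2 fold change of -1.68 ± 0.72 (SE; adjusted p = 0.135 by edgeR), the lowest of the class. TIF2 (chromosome X, 153504 to 154691) had 759, 261 and 568 CPM in ESI+ libraries, against 697, 916 and 1767 CPM in naive libraries. Its groups overlapped through ESI+ replicate 1, and the log2 fold change was -1.09 ± 0.66 (SE; adjusted p = 0.298 by edgeR).

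The reads of TIF1 and TIF2 are hard to tell apart, because their coding sequences differ at 6 of 1188 bases (99.5% identity). A stretch of 60 coding bases of each, the one with the differing bases nearest its centre, is shown with those bases in capitals.
TIF1 (chrXI:555182-555241, + strand): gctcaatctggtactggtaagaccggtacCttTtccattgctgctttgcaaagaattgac
TIF2 (chrX:154437-154496, - strand): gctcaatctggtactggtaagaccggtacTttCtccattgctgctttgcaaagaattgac
Of the coding words of 31 bases in each gene, 90.1% occur in the other, so the split between the 2 rests on few bases and on the untranslated ends, and each single value is uncertain. Their sum does not depend on the split. It was 1936, 625 and 1254 CPM in ESI+ libraries and 2893, 2994 and 4647 CPM in naive libraries. Every ESI+ sum lay below every naive sum, and the log2 fold change of the sum was -1.47 ± 0.74 (SE; adjusted p = 0.209 by edgeR), or -1.14 ± 0.57 (SE; adjusted p = 0.277) without ESI+ replicate 2. No other member shared a 31-base coding word with another gene.

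TIF3, the gene of eIF4B, which stimulates eIF4A, had 298, 109 and 178 CPM in ESI+ libraries and 411, 684 and 538 CPM in naive libraries. The groups did not overlap, and the log2 fold change was -1.48 ± 0.53 (SE; adjusted p = 0.0766 by edgeR). CDC33, the gene of the cap-binding eIF4E, had 368, 179 and 426 CPM in ESI+ libraries, against 534, 743 and 489 CPM in naive libraries. Its ESI+ values also lay below all naive values, with a log2 fold change of -0.86 ± 0.56 (SE; adjusted p = 0.326 by edgeR). TIF4632, the listed gene of the scaffold eIF4G, differed from these. It had 116.8, 157 and 105 CPM in ESI+ libraries and 79.7, 145 and 124 CPM in naive libraries, with overlapping groups and a log2 fold change of 0.13 ± 0.45 (SE; adjusted p = 0.874 by edgeR). PAB1 had 550, 267 and 308 CPM in ESI+ libraries, against 415, 494 and 1585 CPM in naive libraries. Naive replicate 3 stood far above the other naive libraries, and the log2 fold change was -1.15 ± 0.64 (SE; adjusted p = 0.258 by edgeR). Without naive replicate 3 the log2 fold change of PAB1 was -0.22 ± 0.68 (SE; adjusted p = 0.888 by edgeR), and that of TIF2 was -0.55.

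**Figure D2:**
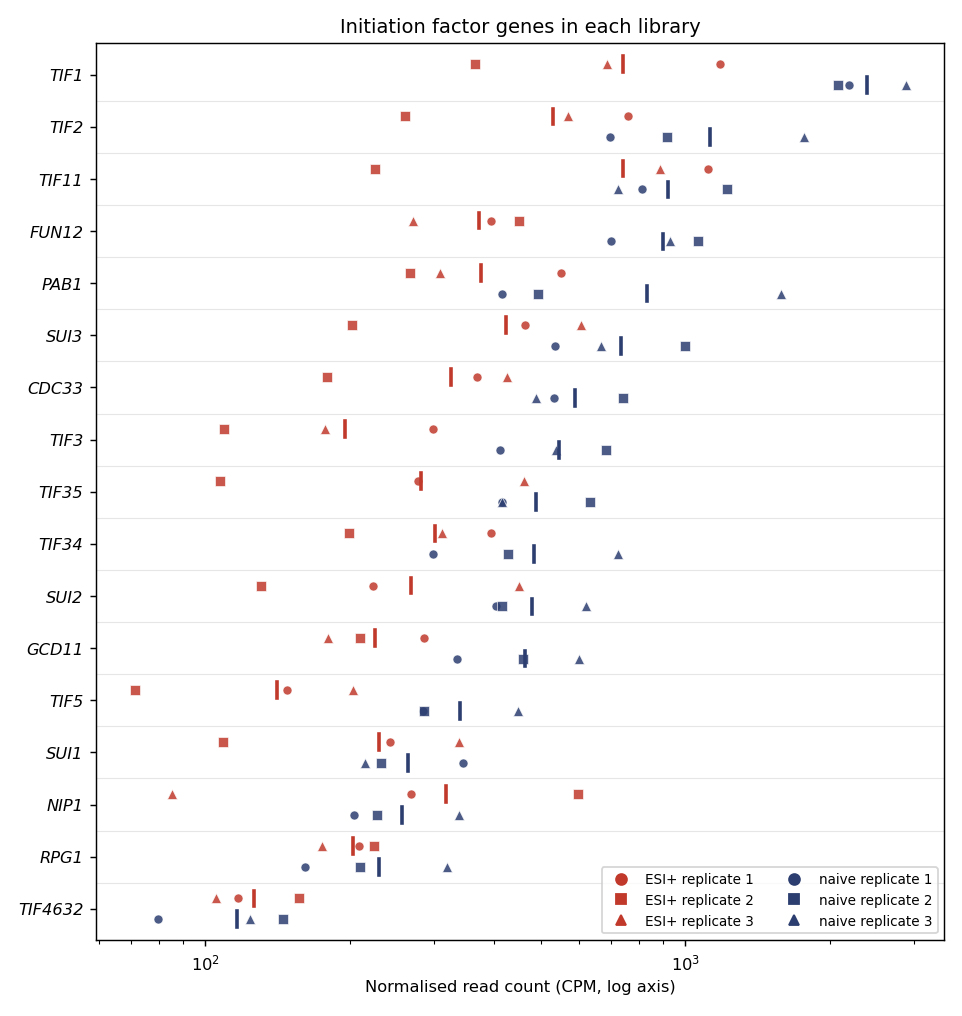
Normalised read count (CPM, log axis) of each of the 17 initiation factor genes in each library, ESI+ above naive in each row, with vertical bars at the group means and 1 marker shape per replicate number. TIF1 is separated between the groups, while TIF11, SUI1, RPG1 and TIF4632 overlap; ESI+ replicate 2 is the lowest ESI+ library for most genes and the highest for NIP1, FUN12, RPG1 and TIF4632.

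The 3 subunits of eIF2 had negative fold changes. SUI2 (alpha), SUI3 (beta) and GCD11 (gamma) had log2 fold changes of -0.85 (SE 0.54), -0.80 (SE 0.61) and -1.04 (SE 0.50), with edgeR adjusted p of 0.317, 0.411 and 0.186. GCD11, which binds GTP and the initiator tRNA, had 285, 210 and 180 CPM in ESI+ libraries and 335, 459 and 599 CPM in naive libraries, without overlap. SUI2 had 224, 131 and 451 CPM in ESI+ libraries, against 404, 415 and 621 CPM in naive libraries. SUI3 had 462, 202 and 606 CPM in ESI+ libraries, against 535, 1001 and 668 CPM in naive libraries. Both overlapped between the groups through ESI+ replicate 3. SUI2, SUI3 and GCD11 stood at -0.52, -0.46 and -0.99 on the log2 scale once ESI+ replicate 2 was left out.

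The 4 listed eIF3 subunits had log2 fold changes of -0.80 to 0.32 and a median of -0.43. TIF35 (subunit g) had 277, 107 and 461 CPM in ESI+ libraries and 414, 633 and 415 CPM in naive libraries. TIF34 (subunit i) had 394, 199 and 310.5 CPM in ESI+ libraries, against 299, 426 and 723 CPM in naive libraries. RPG1 (subunit a) had 209, 224.5 and 175 CPM in ESI+ libraries, against 161, 210 and 318 CPM in naive libraries. All 3 overlapped between the groups, and their log2 fold changes were -0.80 (SE 0.55), -0.68 (SE 0.54) and -0.18 (SE 0.44), with edgeR adjusted p of 0.361, 0.424 and 0.826. NIP1 (subunit c) had 269, 598 and 85.1 CPM in ESI+ libraries, against 204, 228 and 337 CPM in naive libraries. Its highest and lowest values were both in ESI+ libraries, and its log2 fold change of 0.32 ± 0.54 (SE; adjusted p = 0.737 by edgeR) became -0.51 ± 0.50 (SE; adjusted p = 0.572) without ESI+ replicate 2.

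The small scanning factors eIF1 and eIF1A hold the small subunit open while it searches for the start codon. SUI1 (eIF1) had 243, 109 and 338 CPM in ESI+ libraries and 345, 232 and 216 CPM in naive libraries. TIF11 (eIF1A) had 1112, 225 and 884 CPM in ESI+ libraries, against 812, 1222 and 723 CPM in naive libraries. Both groups overlapped, with log2 fold changes of -0.22 ± 0.47 (SE; adjusted p = 0.799 by edgeR) and -0.31 ± 0.67 (SE; adjusted p = 0.792) that became 0.13 and 0.12 without ESI+ replicate 2.

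The factors that act at and after start codon choice were lower in ESI+ libraries without passing the test. TIF5, the gene of eIF5, which makes eIF2 hydrolyse its GTP, had 148, 71.2 and 203 CPM in ESI+ libraries and 284, 285 and 449 CPM in naive libraries. FUN12, the gene of eIF5B, which joins the large subunit, had 394, 450 and 270 CPM in ESI+ libraries, against 699, 1062 and 930 CPM in naive libraries. Neither gene overlapped between the groups, and their log2 fold changes were -1.29 ± 0.48 (SE; adjusted p = 0.0841 by edgeR) and -1.27 ± 0.60 (SE; adjusted p = 0.183). FUN12 had the fold change that was furthest from 0 in this class without ESI+ replicate 2, at -1.43 ± 0.46 (SE; adjusted p = 0.140).

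Among the synthetases, FRS1 (YLR060W, chromosome XII, 260979 to 262766) fell in ESI+ cells. It had 263, 173 and 113 CPM in ESI+ libraries and 522, 694 and 741 CPM in naive libraries. The highest ESI+ value lay well below the lowest naive value. The mean was 183 ± 75.8 CPM in ESI+ and 652 ± 115 CPM in naive libraries (SD, n = 3 each), a log2 fold change of -1.82 ± 0.55 (SE; adjusted p = 0.0418 by edgeR). Its call was lost when any library but ESI+ replicate 1 was left out, with edgeR adjusted p of 0.129 and 0.113 without ESI+ replicates 2 and 3 and of 0.0817, 0.139 and 0.126 without naive replicates 1, 2 and 3. In the same order, edgeR called 0, 43, 14, 6 and 4 of all tested genes lower in these fits, against 47 with all libraries. Without ESI+ replicate 2 the fold change of FRS1 was -1.77 ± 0.49 on the log2 scale (SE). The fold change was negative under all 19 alternatives, with an adjusted p of 0.00445 to 0.375. FRS2, the alpha subunit of the same enzyme, which works as a tetramer of both subunits, had 114, 116 and 165 CPM in ESI+ libraries, against 199, 179 and 534 CPM in naive libraries. Its groups did not overlap either, with a log2 fold change of -1.22 ± 0.48 (SE; adjusted p = 0.102 by edgeR), or -1.14 ± 0.54 (SE; adjusted p = 0.262) without ESI+ replicate 2.

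**Figure D3:**
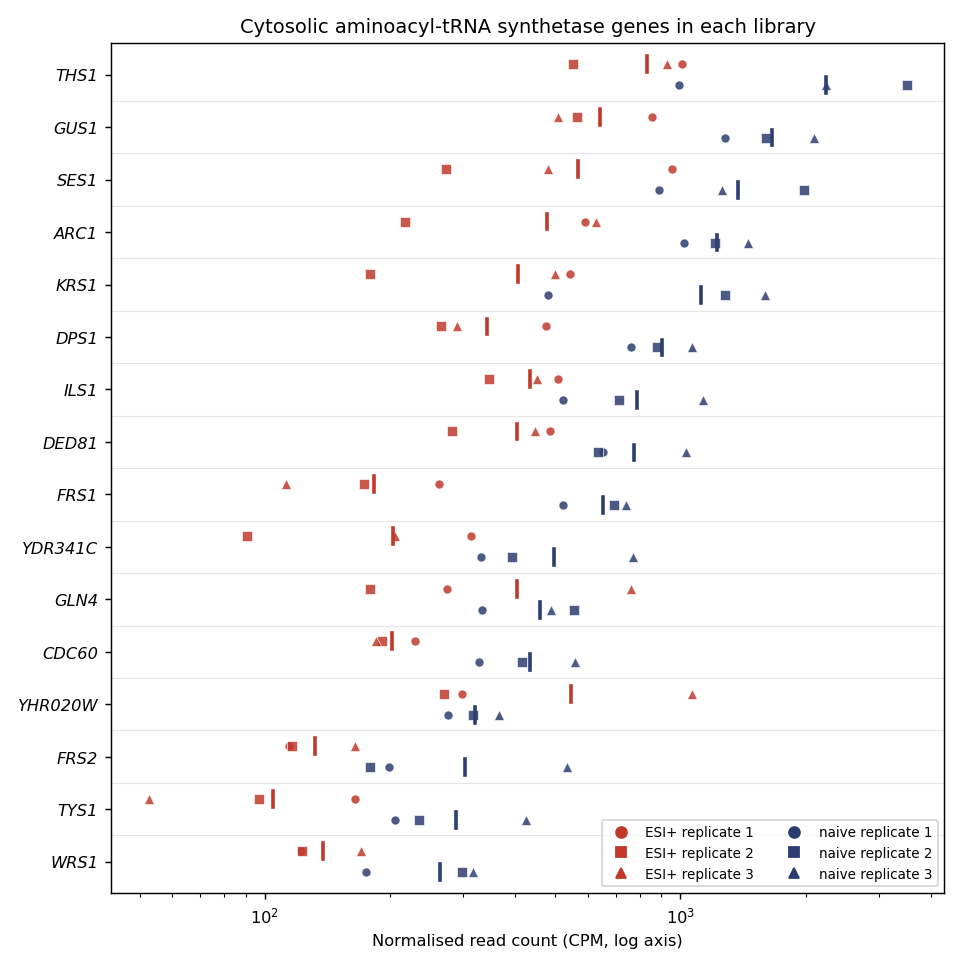
Normalised read count (CPM, log axis) of each of the 16 synthetase genes in each library, ESI+ above naive in each row, with vertical bars at the group means and 1 marker shape per replicate number. For 11 genes, FRS1 among them, all ESI+ values lie below all naive values, while GLN4 and YHR020W have their highest value in ESI+ replicate 3.

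ARC1 encodes a cofactor that binds tRNA and holds the glutamyl and methionyl enzymes in one complex, and GUS1 encodes the glutamyl enzyme. ARC1 had 591, 217 and 626 CPM in ESI+ libraries and 1018, 1212 and 1453 CPM in naive libraries. GUS1 had 852, 563 and 508 CPM in ESI+ libraries, against 1277, 1610 and 2098 CPM in naive libraries. Neither gene overlapped between the groups. Their log2 fold changes were -1.36 ± 0.66 (SE; adjusted p = 0.188 by edgeR) for ARC1 and -1.37 ± 0.68 (SE; adjusted p = 0.199) for GUS1, and -1.01 and -1.28 without ESI+ replicate 2. ARC1 lay below GUS1 relative to the naive mean in ESI+ replicate 2 (-2.48 and -1.53 on the log2 scale) and above it in ESI+ replicate 3 (-0.96 and -1.68).

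Among the remaining synthetases the lowest fold changes belonged to the lysyl, tyrosyl and threonyl enzymes. TYS1 (tyrosine) had 165, 96.8 and 52.6 CPM in ESI+ libraries and 206, 235 and 426 CPM in naive libraries. It came nearest to the threshold after FRS1, with a log2 fold change of -1.44 ± 0.48 (SE; adjusted p = 0.0568 by edgeR) and no overlap. KRS1 (lysine) had 542, 179 and 498 CPM in ESI+ libraries, against 480, 1278 and 1601 CPM in naive libraries. THS1 (threonine) had 1009, 552 and 926 CPM in ESI+ libraries, against 992, 3500 and 2241 CPM in naive libraries. In both genes ESI+ replicate 1 lay above naive replicate 1, and the log2 fold changes were -1.46 ± 0.67 (SE; adjusted p = 0.164 by edgeR) and -1.44 ± 0.73 (SE; adjusted p = 0.206). SES1 (serine) showed the same overlap, with 952, 273 and 481 CPM in ESI+ libraries and 889, 1979 and 1263 CPM in naive libraries (-1.27 ± 0.69 on the log2 scale, SE; adjusted p = 0.238 by edgeR).

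DPS1 (aspartate), YDR341C (arginine), CDC60 (leucine), WRS1 (tryptophan), DED81 (asparagine) and ILS1 (isoleucine) had log2 fold changes of -1.39, -1.30, -1.10, -0.94, -0.93 and -0.86, with SE of 0.44 to 0.61. Each of the 6 genes had its ESI+ values below all naive values, and their edgeR adjusted p ran from 0.127 (YDR341C) to 0.370 (ILS1). DED81 had 487, 282 and 446 CPM in ESI+ libraries and 653, 633 and 1031 CPM in naive libraries. ILS1 had 507, 347 and 451 CPM in ESI+ libraries, against 522, 710 and 1132 CPM in naive libraries. Its ESI+ replicate 1 was close to naive replicate 1. Without naive replicate 3 the log2 fold changes of FRS2, YDR341C, DED81 and ILS1 were -0.47, -0.78, -0.61 and -0.44, and without naive replicate 2 that of THS1 was -0.92.

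The prolyl and glutaminyl synthetase genes stood outside this pattern. YHR020W, annotated as the prolyl enzyme, had 298, 271 and 1064 CPM in ESI+ libraries and 276, 316 and 367 CPM in naive libraries. It was the synthetase gene with a positive log2 fold change, 0.76 ± 0.58 (SE; adjusted p = 0.412 by edgeR), or -0.17 without ESI+ replicate 3. GLN4, the glutaminyl enzyme, had 275, 179 and 761 CPM in ESI+ libraries, against 333, 555 and 488 CPM in naive libraries. Its log2 fold change was -0.19 ± 0.58 (SE; adjusted p = 0.857 by edgeR), or -1.02 without ESI+ replicate 3. In both genes ESI+ replicate 3 was the highest library of all 6, and the other ESI+ values were within or below the naive range. DED81, which is divergent from YHR020W, was below its naive range in ESI+ replicate 3.

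The 6 synthetase genes with TGACTC and the 10 without it had median log2 fold changes of -1.33 and -1.25. The 22 members with AAAATTTT and the 11 without it had medians of -1.13 and -1.09. All ESI+ values lay below all naive values for 14 of the 22 members with AAAATTTT and 3 of the 11 without it. The same held for 3 of the 6 synthetases with TGACTC and 8 of the 10 without it. It held for 14.6% of all tested genes and 31.5% of the 711 most abundant. Fold changes of genes outside the classes were not split by motif. The difference between members with and without a motif was not tested.

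Between the classes, the median fold change of the initiation factors was 0.43 higher (less negative) than that of the synthetases on the log2 scale. In single libraries, the initiation factors lay at a median log2 difference from the naive mean of -0.62, -1.69 and -0.54 in ESI+ replicates 1, 2 and 3 and of -0.34, -0.07 and 0.29 in naive replicates 1, 2 and 3. The synthetase medians were -0.88, -1.51 and -1.05 in ESI+ and -0.42, -0.01 and 0.34 in naive libraries. The difference between the classes was 0.26, -0.18 and 0.51 in ESI+ libraries, so its sign was not the same in all 3. In naive libraries it was 0.08, -0.06 and -0.05. The medians of the 711 most abundant genes were -0.26, -1.46 and -0.50 in ESI+ replicates 1, 2 and 3. The synthetases lay below those genes in ESI+ replicates 1 and 3 by more than in replicate 2, where all 3 medians were close.

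**Figure D4:**
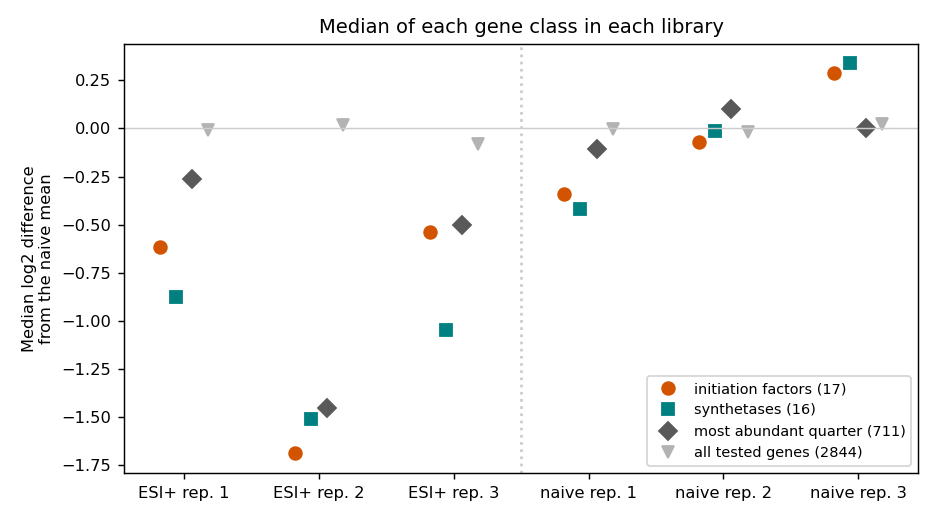
Median log2 difference from the naive mean (vertical axis) in each library for 17 initiation factors, 16 synthetases, the 711 most abundant tested genes and all tested genes. Both classes lie below 0 in all 3 ESI+ libraries, and naive replicate 1 also lies below 0 (-0.34 and -0.42).

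The members were also set against the naive range library by library. In ESI+ replicates 1, 2 and 3, 12, 16 and 13 of 16 synthetases lay below all naive values, against 9, 14 and 9 of 17 initiation factors. Above all naive values lay 0, 0 and 2 synthetases and 0, 2 and 0 initiation factors. The matching shares over all tested genes were not computed. Below the naive mean, a looser limit, lay 16, 16 and 14 of 16 synthetases and 14, 14 and 16 of 17 initiation factors. So did 447, 671 and 482 of the 711 most abundant genes, and 1429, 1406 and 1506 of all 2844 tested genes. The middle 50 in 100 of fold changes ran from -1.40 to -0.94 over the synthetases and from -1.15 to -0.31 over the initiation factors. The median SD of log2 CPM between replicates was 0.54 over the synthetases and 0.77 over the initiation factors in ESI+ libraries, against 0.43 and 0.38 in naive libraries. Synthetase genes are also longer, with a median coding length of 1782 bases (1131 to 3273) against 1188 bases (327 to 3009). Whether length has a part in the difference was not tested. With effective-length offsets in edgeR the difference of the medians was 0.42. Those offsets correct only for shifts in length between libraries, so they cannot show a part of length differences between genes.

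**Figure D5:**
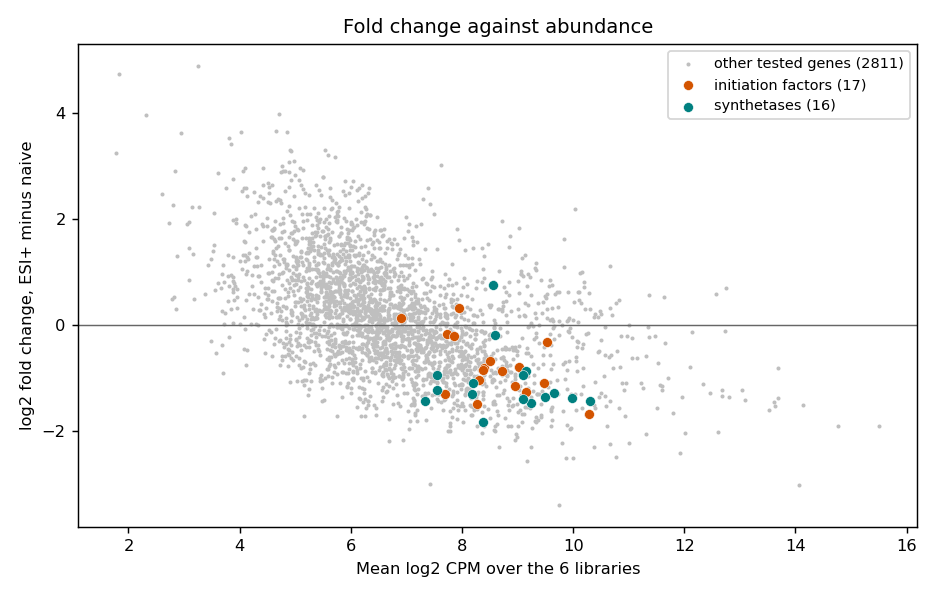
Log2 fold change (ESI+ minus naive, vertical axis) against mean log2 CPM over the 6 libraries (horizontal axis) for 17 initiation factors, 16 synthetases and the other 2811 tested genes. Fold changes decline with abundance over all genes, and 28 of the 33 members lie among the 711 most abundant genes, whose median is -0.67.

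Levels between genes were compared in TPM, a share of all transcripts that is corrected for length. The TPM of single genes are not compared between the groups here, since the median of all genes was 0.64 higher in ESI+ on the log2 (TPM + 1) scale. The order of the initiation factors in ESI+ libraries ran from TIF11 (1610 ± 585 TPM) and SUI1 (771 ± 216 TPM) to TIF4632 (54.2 ± 35.2 TPM; SD, n = 3 each). In naive libraries it ran from TIF11 (1422 ± 279 TPM) and TIF1 (1371 ± 309 TPM) to TIF4632 (25.3 ± 4.73 TPM; SD, n = 3 each). Of the 16 pairs of neighbours in that order, 16 overlapped in ESI+ and 12 in naive libraries, so most neighbouring ranks are not resolved. The synthetases spanned a narrower range, from ARC1 (447 ± 108 TPM) to CDC60 (68.6 ± 25.9 TPM) in ESI+ libraries and from ARC1 (742 ± 134 TPM) to CDC60 (81.4 ± 20.7 TPM) in naive libraries (SD, n = 3 each). All 15 pairs of neighbours overlapped in each group. The initiation factors together held 0.657 ± 0.0784% of TPM in ESI+ and 0.751 ± 0.0780% in naive libraries. The synthetases held 0.357 ± 0.0217% in ESI+ and 0.490 ± 0.113% in naive libraries (SD, n = 3 each). The limit on comparing TPM between the groups holds for these class shares too.

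Ratios of TPM between members that act together were formed for 16 pairs, and the groups overlapped for 13 of them. The share of pairs without overlap among genes at large was not computed. The 3 pairs without overlap were CDC33 over TIF4632, TIF1 over TIF4632 and TIF1 over TIF2, the last 2 of which rest on the uncertain split of reads between TIF1 and TIF2. CDC33 exceeded TIF4632 by 14.5, 5.26 and 18.4 times in ESI+ libraries and by 31.6, 26.1 and 20.5 times in naive libraries. TIF1 exceeded TIF4632 by 25.3, 5.81 and 16.6 times in ESI+ libraries and by 69.3, 37.2 and 60.9 times in naive libraries. The sum of TIF1 and TIF2, which does not depend on the split, exceeded TIF4632 by 39.4, 9.51 and 28.4 times in ESI+ libraries and by 88.4, 51.3 and 92.97 times in naive libraries, without overlap. TIF1, TIF2 and CDC33 are among the 711 most abundant genes, whose median log2 fold change was -0.67. TIF4632 is among the next 711, whose median was -0.20. The part of this dependence on abundance in the ratios to TIF4632 was not tested. The ratio of ARC1 to GUS1 was 1.30, 0.720 and 2.37 in ESI+ libraries and 1.52, 1.47 and 1.36 in naive libraries. That of FRS1 to FRS2 was 1.92, 1.23 and 0.573 in ESI+ libraries, against 2.20, 3.24 and 1.15 in naive libraries. The ratio of SUI2 to SUI3 was 0.411, 0.552 and 0.594 in ESI+ libraries, against 0.614, 0.338 and 0.754 in naive libraries.

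Other genes of the pathway were read from lists of eIF2B with general control genes, of cap and scanning partners, and of mitochondrial synthetases. Of eIF2B, which recharges eIF2 with GTP, and the general control genes, 3 of 9 were listed. Its regulatory subunit GCD7 fell, with 81.3, 52.7 and 20.03 CPM in ESI+ libraries and 136, 189 and 193 CPM in naive libraries (-1.69 ± 0.50 on the log2 scale, SE; adjusted p = 0.0376 by edgeR). The catalytic-subcomplex gene GCD1 also fell, with 114, 77.4 and 65.1 CPM in ESI+ libraries, against 235, 216 and 261 CPM in naive libraries (-1.46 ± 0.44 on the log2 scale, SE; adjusted p = 0.0421 by edgeR). In both genes the groups were separate, and without ESI+ replicate 2 the values were -1.67 ± 0.54 (SE; adjusted p = 0.141) and -1.38 ± 0.42 (SE; adjusted p = 0.140). Over the 19 alternatives the adjusted p ran from 0.0223 to 0.383 for GCD7 and from 0.0206 to 0.508 for GCD1, and all fold changes were negative. Of the 3 listed genes 2 were thus called lower, where 1.65% of all tested genes were. All 3 had ESI+ values below all naive values, as did 14.6% of tested genes. In the shallow ESI+ replicate 3, GCD7 rested on 8 counts and GCD1 on 26. GCN4, the activator of amino acid synthesis genes, had a log2 fold change of -1.29 ± 0.72 (SE; adjusted p = 0.253 by edgeR), with 990, 353 and 1022 CPM in ESI+ libraries and 1421, 1347 and 3021 CPM in naive libraries.

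Of the cap and scanning partners, 7 of 9 were listed, 1 was called lower and 0 higher, where 1.65% and 6.26% of all tested genes were, with a median log2 fold change of -1.10. RLI1, which splits ribosomes for another round of initiation, fell, with 123.3, 77.6 and 55.1 CPM in ESI+ libraries and 178, 198 and 352 CPM in naive libraries (-1.49 ± 0.46 on the log2 scale, SE; adjusted p = 0.0456 by edgeR). Without ESI+ replicate 2 its fold change was -1.41 ± 0.50 (SE; adjusted p = 0.160), and over the 19 alternatives the adjusted p ran from 0.0345 to 0.530. RLI1 rested on 22 counts in ESI+ replicate 3. Mitochondrial synthetases charge tRNAs inside the organelle. Of the 14 in the list 8 were listed in the tables, and 7 of these had a fold change above 0, against 52.4% of all tested genes and 80.7% of the 711 least abundant. The median log2 fold change of the 8 was 1.33. None of the 8 passed with edgeR (4 higher at a raw p under 0.05, where 15.1% of all tested genes and 29.5% of the 711 least abundant were higher), and none was among the 711 most abundant genes. MSY1 and DIA4, the mitochondrial tyrosyl and seryl enzymes, had the smallest p, at 1.81 ± 0.62 and 1.80 ± 0.67 on the log2 scale (SE), with edgeR adjusted p of 0.0648 and 0.0846. Without ESI+ replicate 2, the list median was 0.32, MSY1 had 1.59 and DIA4 had 0.52. The 711 least abundant tested genes had a median of 0.79, or 0.33 without that library.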

How the data were processed

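Per the submitters' processing notes, transcripts were quantified with kallisto 0.43.1 against yeast build R64. Per the file headers, the deposited tables give estimated counts and TPM per isoform, with isoform and effective lengths; isoform models, strand setting and options are not given in the sources used here. For each gene, the estimated counts of its isoforms were added up and rounded to whole numbers; the TPM deposited by the authors were summed likewise. All genes passing edgeR's filter (minimum count 10; 2844 genes) were scaled by TMM and tested with edgeR 4.0.16 in R 4.3.3, with robust estimation, chosen after both forms had been run (without it FRS1 was still the member called). SEs were derived from the fold change and F statistic. The script was tested on simulated data, which did not include the dependence on abundance seen in ESI+ replicate 2. Symbols, coding spans and promoters came from the RefSeq R64 reference; similarity was read with blastn 2.17.0. Members, lists, motifs and alternatives were chosen with earlier results of these data known. Per-library values are given for called members, the 4 lowest and 4 highest fold changes and 3 highest TPM per class, and complex subunits; of other lists, for called genes or the 2 with the smallest p, and CDC33, PAB1 and GCN4 were added after their values were seen. No gene set test was run. The alternatives used DESeq2 1.42.0 and limma 3.58.1 (log2 TPM with pseudocounts of 1 and 0.1).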

Additional observations from a re-analysis of the deposited data

How the results depend on the processing

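Of the 33 members, 25 kept a negative fold change under all 19 alternatives and 8 changed sign under at least 1. The threshold of 0.01 could not change a sign, since it uses the same fit. Without robust estimation the class medians were the same and 0 members changed sign. The share of all tested genes that kept their sign under every alternative was not computed. In place of 1 synthetase (FRS1) and 0 initiation factors, DESeq2 called 3 of each lower (5.12% of all genes). The synthetase count was 0 with limma on TPM at either pseudocount, with the replicate block (FRS1 adjusted p = 0.0711), without replicate 3 of both groups, and at an adjusted p under 0.01. Of all tested genes, limma called 32 and 20 of 2850 lower with pseudocounts of 1 and 0.1, and the replicate block 25 of 2844. Without replicate 3 of both groups it was 6 of 2848, and at an adjusted p under 0.01 it was 1 of 2844. Leaving out 1 library gave 0 to 2 synthetases and 0 to 1 initiation factors called lower. TYS1 joined FRS1 without ESI+ replicate 1, and TIF5 was called without ESI+ replicate 3. Of all tested genes, 87 of 2847, 0 of 2841 and 43 of 2849 were called lower without ESI+ replicates 1, 2 and 3. Without naive replicates 1, 2 and 3 it was 14, 6 and 4 of 2849. The medians ran from -1.52 to -0.90 for synthetases and from -1.09 to -0.52 for initiation factors, with a class difference of 0.11 to 0.64. The synthetase count was also 0 with ESI+ replicate 1 alone, where only the naive libraries give the spread and 0 of all genes were called, which says nothing about FRS1. With limma on TPM at either pseudocount the initiation factor median was -0.22, or -0.87 relative to all genes. The synthetase median was -0.56 with limma on TPM at either pseudocount, where the median of all genes was 0.64 to 0.65, so -1.20 relative to it. The synthetase median was -0.93 with ESI+ replicate 1 alone.

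Sign changes all fell on members that were not called. With limma on TPM and a pseudocount of 1, TIF34, TIF11, SUI1, RPG1 and GLN4 had 0.10, 0.12, 0.19, 0.65 and 0.36, and with a pseudocount of 0.1 they had 0.10, 0.12, 0.20, 0.66 and 0.36. With ESI+ replicate 1 alone TIF11 had 0.26 and YHR020W -0.11. Without replicate 3 of both groups RPG1 had 0.23 and YHR020W -0.060. Leaving out 1 library gave -1.02 to 0.17 for GLN4, -0.68 to 0.12 for TIF11, -0.59 to 0.13 for SUI1, -0.053 to 0.36 for TIF4632, -0.51 to 0.76 for NIP1, -0.17 to 1.11 for YHR020W and -0.33 to 0.19 for RPG1.

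Correlations of deviations across genes were -0.21 to -0.04 for same-numbered replicates and -0.09 to 0.17 for replicates with different numbers. Deviations were taken from the mean of each small group, so these values cannot show whether the numbers pair the samples. Removing replicate 3 of both groups and edgeR without robust estimation were alternatives chosen after seeing the data, and the cause of these differences was not tested. Depth limits ESI+ replicate 3 most.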
